A study of Mus musculus with 10 samples.

Results

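The genes described here encode the contractile and focal adhesion cytoskeleton of the fibroblast: myosin subunits and the kinase that switches them on, proteins that sit along actin filaments in smooth muscle, tropomyosins, actin cross-linkers, proteins of the focal adhesion plaque, LIM domain proteins, and the transcription factor Srf. The list named 41 genes, and a gene was represented by every probe set that carried its symbol in the array annotation. Actin and integrin genes were not on the list. Of the 41 genes, 40 matched a probe set (Myh10 had none), through 84 probe sets with a single symbol among the 22690 on the array. A further 2 probe sets carried several symbols and were left out. After a filter on dim probe sets 39 members were tested among 8403 genes, and Fhl3 was the one measured member below the filter.

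Contraction in non-muscle cells is driven by myosin II filaments that pull on actin bundles, after myosin light chain kinase has phosphorylated the regulatory light chain. The bundles end at focal adhesions, where talin, vinculin, paxillin and zyxin couple actin to integrins and the matrix. Many genes of this machinery carry CArG boxes, the DNA element bound by Srf, whose cofactor MRTF is held in the cytoplasm by free actin monomers and moves to the nucleus when actin polymerizes. Embryonic fibroblasts in culture form stress fibres and express a number of genes first described in smooth muscle, among them Tagln and Cnn1.

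RNA came from primary mouse embryonic fibroblasts, connective tissue cells taken from embryos at E13.5 (embryonic day), on a mixed background of C57BL/6 and 129. The groups were 3 arrays of wild type cells, 3 arrays of Snf5-/- cells and 4 arrays of Brg1-/- cells. Cells of all 3 groups, the wild type included, received Cre recombinase from a retrovirus and were selected in puromycin at 2.5 ug/ml, so Cre and selection were common to every comparison. The share of cells that had lost the gene was not given in the sources used here. SWI/SNF is a complex that moves nucleosomes; Brg1, encoded by Smarca4, is an ATPase of it and Snf5, encoded by Smarcb1, belongs to its core, and the study asked how the loss of either subunit alters gene expression. Whether arrays of one group stand for different embryos or for different cultures is not stated in the labels, so every p-value below measures only the spread between these arrays, and the number of arrays limits the precision.

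The arrays differed in overall brightness, with a median deposited intensity from 190.6 to 233.6 in wild type, 164.1 to 189.9 in Snf5-/- and 145.6 to 168.0 in Brg1-/-. Log2 changes are therefore given after quantile normalization, which gives all arrays the same distribution of intensities (the quantile scale). Changes from the deposited values are given beside them (the deposited scale). Intensities of genes, single or summed, are printed on the quantile scale unless called deposited. Over all 8403 genes the median log2 change on the deposited scale was -0.27 in Snf5-/- and -0.47 in Brg1-/-, against 0.02 in both on the quantile scale. A gene is written as having risen or fallen where limma gave an adjusted p under 0.05 on the quantile scale, and errors of log2 changes are standard errors (SE). The targeted genes were low in the arrays labelled as lacking them: Smarcb1 fell by 1.37 ± 0.11 in Snf5-/- (limma adjusted p = 1.97e-05) and Smarca4 fell by 2.10 ± 0.14 in Brg1-/- (adjusted p = 2.25e-06). All 12 of 12 fibroblast markers were tested and none was at background in all arrays, and their summed intensity ran from 106481 to 119545 in wild type, 123754 to 132232 in Snf5-/- and 92456 to 117770.0 in Brg1-/-. Single fibroblast markers moved in both directions: in Snf5-/- Col1a2, Col3a1 and Postn rose and S100a4 fell, and in Brg1-/- Col3a1, Pdgfra and Postn rose and Pdgfrb and S100a4 fell, with log2 changes of the 12 from -1.43 to 1.86 and from -2.44 to 1.24. On the deposited scale only Col3a1 and Postn in Snf5-/- remained called higher, and the Pdgfra call was lost without any one wild type array or Brg1-/- replicate 2, 3 or 4 (adjusted p up to 0.13).

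In Brg1-/- cells, 15 of the 39 tested members fell (12.9% of all genes fell) and 3 rose (14.9% of all genes rose), with a median log2 change of -0.21 over the members. In Snf5-/- cells 9 members fell (7.47% of all genes fell) and 4 rose (10.6% of all genes rose), with a median of -0.06. All 9 and all 15 falls also passed on the deposited scale, and none of the rises did. On that scale the median change of all genes was -0.27 in Snf5-/- and -0.47 in Brg1-/-. There 16.1% and 44.1% of all genes were called lower. Falls thus pass more readily there and rises less readily, so a pass there gives a fall no separate support, here or below. The genes that fell in both mutants were Fhl1, Lpp, Mylk, Parva, Pxn and Tagln2. Of these, only Pxn kept its Snf5-/- call with any single array left out. The share of all genes that fell in both mutants was not counted. Both mutants were set against the same wild type arrays, so these lists are not independent. Because these are bulk samples, fewer cells of a type and less RNA per cell cannot be told apart.

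**Figure D1:**
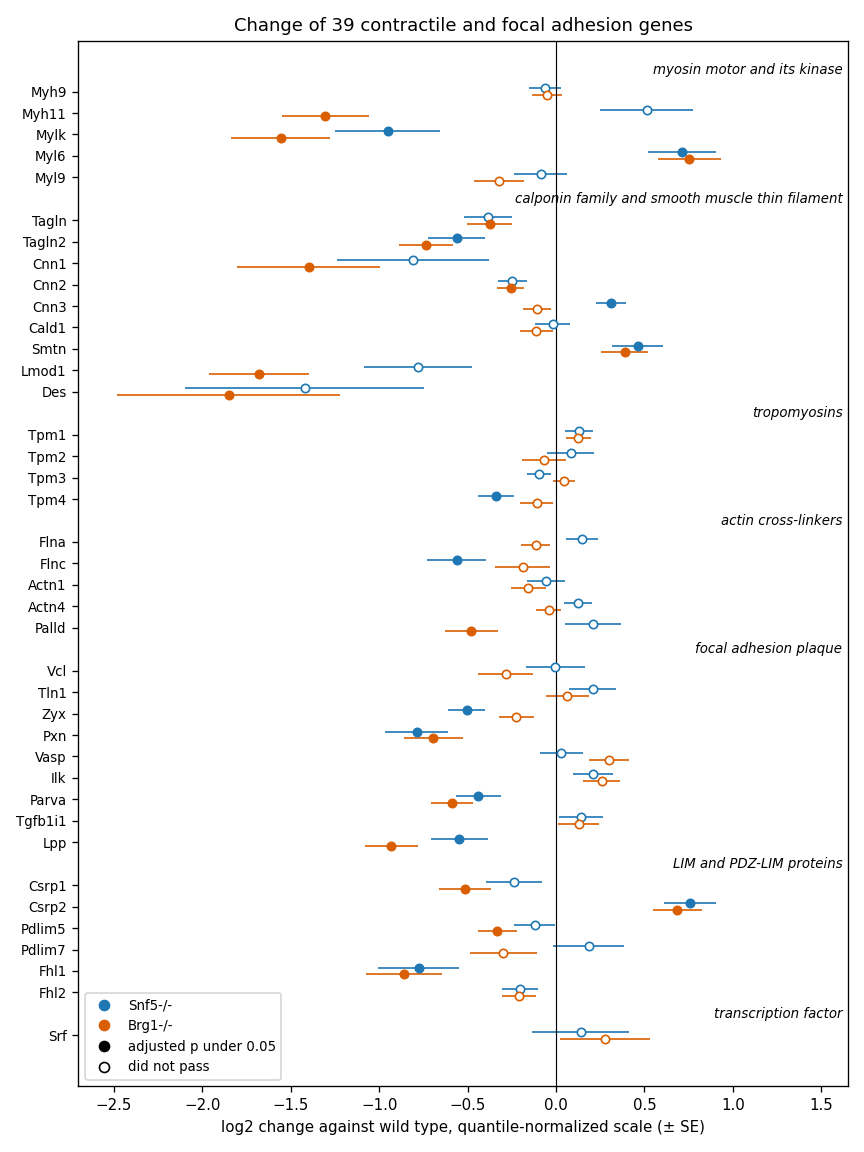
Log2 change against wild type of the 39 tested members on the quantile scale (horizontal axis, with SE bars), ordered by role, for Snf5-/- (blue) and Brg1-/- (orange); filled points passed an adjusted p of 0.05. The lowest points are Des, Lmod1 and Mylk in Brg1-/-, then Des in Snf5-/- (an open point), then Cnn1 and Myh11 in Brg1-/-. Csrp2 and Myl6 lie highest in both mutants.

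The counts depended on which arrays were used. Counts over all genes moved as well. With 1 array left out 922 to 1668 genes changed in Snf5-/-, beside 1520 with all arrays, and 1639 to 2507 in Brg1-/-, beside 2330. The share of all genes that fell in each of these fits was not counted, so the member counts below are only a description. In the Snf5-/- comparison the fallen members numbered 3 without wild type replicate 1, 2 without wild type replicate 2, and 3 and 2 when wild type replicate 3 or Snf5-/- replicate 3 was left out, and the risen members numbered 2 without wild type replicate 2, wild type replicate 3 or Snf5-/- replicate 1. In the Brg1-/- comparison the fallen members numbered 7, 8 and 9 without wild type replicates 1, 2 and 3, and 9 and 8 without Brg1-/- replicates 2 and 3. Within their groups 2 arrays stood apart over the members: the mean log2 level of the 39 genes, relative to the mean of all 10 arrays, was -0.21 in Snf5-/- replicate 3 while the remaining Snf5-/- arrays had 0.14 and 0.16, and 0.09 in Brg1-/- replicate 1 against -0.22, -0.27 and -0.22 in the other Brg1-/- arrays. Without Brg1-/- replicate 1, 17 members fell and 2 rose. When limma was run without its intensity trend, 2 members fell in Snf5-/- and 9 in Brg1-/-. Calls that passed in each of the 10 fits that left out an array were those of Zyx, Pxn and Csrp2 in Snf5-/-, and of Myh11, Mylk, Myl6, Tagln2, Lmod1, Pxn, Parva, Lpp and Csrp2 in Brg1-/-.

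Srf, the factor that binds CArG boxes, read 511, 471 and 501 in wild type, against 729, 538 and 410.4 in Snf5-/- and 1005, 592, 443 and 487 in Brg1-/-. Both mutant groups spread around the wild type values, and the highest array was Brg1-/- replicate 1. Its log2 change was 0.14 ± 0.27 in Snf5-/- (adjusted p = 0.773) and 0.28 ± 0.26 in Brg1-/- (adjusted p = 0.461), and neither passed. The mRNA of its cofactor Mrtfa rose in both mutants on the quantile scale, as given with the other pathway genes below. Mrtfb, the other MRTF gene listed, had negative values, -1.11 ± 0.74 in Snf5-/- and -1.46 ± 0.69 in Brg1-/-. Neither passed (adjusted p = 0.333 and 0.138). On the deposited scale it passed in Brg1-/- (-1.88, adjusted p = 0.0265), with 1 Snf5-/- and 2 Brg1-/- arrays at or below background.

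RefSeq promoter windows of 300 bases, from 250 before to 50 after an annotated start (assembly GRCm38.p6), were found for 35 member genes. A CArG box, a run of A and T between paired C and paired G, lay in the window of 7 of these genes, or 20.0%, against 1.81% of the 27025 genes in the table. The 7 were Cnn2, Fhl1, Fhl2, Myl6, Myl9, Srf and Vcl. The sequence GGAATG on either strand, the core of the element bound by TEAD factors, lay in 13 of the 35 genes, or 37.1%, against 16.6% of all genes. A match in such a window is a description of letters and not a measured binding site. The windows below are shown because they set the element beside genes with different behaviour: Cnn2 fell in Brg1-/-, Fhl1 fell in both mutants, Myl6 rose in both on the quantile scale, and Srf and Vcl passed in neither. A second Vcl probe set did fall in Snf5-/-, as given further below. Fhl2 and Myl9, whose windows are not shown, passed in neither mutant. Several of these calls, that of Cnn2 among them, were lost when an array was left out. Capitals mark the CArG boxes, which began at -82 and -62 from the start in Srf, -227 in Vcl, -56 in Cnn2, -102 in Fhl1 and -50 in Myl6. Each window spans the first bases of the transcript, at chr17:46556113-46556412 on the minus strand for Srf, chr14:20929148-20929447 on the plus strand for Vcl, chr10:79988350-79988649 on the plus strand for Cnn2, chrX:56779433-56779732 on the plus strand for Fhl1 and chr10:128492960-128493259 on the minus strand for Myl6.
Srf: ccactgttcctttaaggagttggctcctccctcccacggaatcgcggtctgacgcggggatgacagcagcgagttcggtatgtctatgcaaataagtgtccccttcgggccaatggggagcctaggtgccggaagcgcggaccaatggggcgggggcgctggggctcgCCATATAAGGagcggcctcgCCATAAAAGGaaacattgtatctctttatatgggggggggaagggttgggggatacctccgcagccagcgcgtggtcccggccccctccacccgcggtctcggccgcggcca
Vcl: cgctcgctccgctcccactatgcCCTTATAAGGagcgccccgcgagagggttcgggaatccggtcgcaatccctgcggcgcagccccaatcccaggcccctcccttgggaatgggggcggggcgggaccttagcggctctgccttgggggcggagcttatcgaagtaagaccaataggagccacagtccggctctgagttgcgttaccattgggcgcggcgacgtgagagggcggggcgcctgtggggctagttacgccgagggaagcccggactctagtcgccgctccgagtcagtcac
Cnn2: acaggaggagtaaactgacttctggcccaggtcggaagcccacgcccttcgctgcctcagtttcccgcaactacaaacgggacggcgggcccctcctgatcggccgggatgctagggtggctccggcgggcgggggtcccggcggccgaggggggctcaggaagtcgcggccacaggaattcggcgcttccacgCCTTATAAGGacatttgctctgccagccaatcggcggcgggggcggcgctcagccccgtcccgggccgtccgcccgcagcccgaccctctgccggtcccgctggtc
Fhl1: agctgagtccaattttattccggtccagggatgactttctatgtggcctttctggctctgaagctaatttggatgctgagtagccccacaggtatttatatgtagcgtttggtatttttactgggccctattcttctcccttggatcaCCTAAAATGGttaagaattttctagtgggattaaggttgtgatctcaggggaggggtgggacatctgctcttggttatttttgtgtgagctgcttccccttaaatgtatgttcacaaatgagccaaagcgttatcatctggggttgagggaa
Myl6: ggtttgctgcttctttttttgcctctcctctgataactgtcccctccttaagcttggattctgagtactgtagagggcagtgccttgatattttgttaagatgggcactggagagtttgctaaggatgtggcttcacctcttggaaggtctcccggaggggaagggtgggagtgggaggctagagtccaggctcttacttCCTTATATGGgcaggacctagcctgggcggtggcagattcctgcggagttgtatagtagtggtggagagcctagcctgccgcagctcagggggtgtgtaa

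Among the 5 tested genes of the myosin motor and its kinase, Mylk fell in both mutants, Myh11 fell in Brg1-/-, and Myl6 rose in both. Mylk, which encodes myosin light chain kinase, read 508, 429 and 382 in wild type, against 186, 385 and 161 in Snf5-/- and 158, 130.0, 199 and 119 in Brg1-/-. Every Brg1-/- array lay below every wild type array, while Snf5-/- replicate 2 lay within the wild type range. Mylk fell by 0.95 ± 0.30 on the log2 scale in Snf5-/- (adjusted p = 0.0448) and by 1.56 ± 0.28 in Brg1-/- (adjusted p = 0.00174), to 0.34 of the wild type level. The Snf5-/- call was lost when any wild type array, Snf5-/- replicate 1 or 3, or Brg1-/- replicate 1 or 2 was left out (adjusted p up to 0.142).

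Myh11, the smooth muscle myosin heavy chain, was low in the Brg1-/- arrays alone. It read 325, 196 and 199 in wild type, against 299, 453 and 270.4 in Snf5-/- and 101, 89.6, 76.4 and 114 in Brg1-/-, so that every Brg1-/- array lay below every array of both other groups. It fell by 1.30 ± 0.25 in Brg1-/- (adjusted p = 0.00236), to 0.405 of the wild type level. In Snf5-/- its change was 0.51 ± 0.26 (adjusted p = 0.204), with arrays that overlapped wild type. A second Myh11 probe set was at or below background in all 10 arrays.

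Myl6 encodes the essential light chain of smooth muscle and non-muscle myosin. The single probe set that named it alone read 256, 205 and 262 in wild type, against 503, 350.3 and 344 in Snf5-/- and 505, 336, 401 and 395 in Brg1-/-. All mutant arrays were above all wild type arrays. The rise was 0.71 ± 0.19 in Snf5-/- (adjusted p = 0.0227) and 0.75 ± 0.18 in Brg1-/- (adjusted p = 0.00808), but on the deposited scale the changes of 0.45 and 0.32 did not pass (adjusted p = 0.155 and 0.197). The Snf5-/- call was also lost without wild type replicate 2 or Snf5-/- replicate 1 (adjusted p up to 0.0889). The remaining members of the group passed in neither mutant: Myh9, the main non-muscle myosin heavy chain of fibroblasts, gave -0.06 ± 0.09 and -0.05 ± 0.09, and the regulatory light chain gene Myl9 had values of -0.09 ± 0.15 in Snf5-/- and -0.32 ± 0.14 in Brg1-/-.

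The calponin family and the smooth muscle thin filament genes held the largest falls of the set, those of Des and Lmod1 in Brg1-/-. Of the 9 genes, 6 fell in Brg1-/- (Tagln, Tagln2, Cnn1, Cnn2, Lmod1 and Des) and Smtn rose. In Snf5-/-, Tagln2 fell and Cnn3 and Smtn rose. The median log2 change of the 9 was -0.38 in both mutants.

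Lmod1, leiomodin 1, an actin filament nucleator of smooth muscle, read 478, 374 and 367 in wild type, against 366, 220.4 and 161 in Snf5-/- and 185, 138, 100.1 and 98.5 in Brg1-/-. Both mutant groups lay below all wild type arrays, Snf5-/- replicate 1 only just, and they overlapped each other, since Snf5-/- replicate 3 read lower than Brg1-/- replicate 1. The fall in Brg1-/- was 1.68 ± 0.28 on the log2 scale (adjusted p = 0.0012), to 0.312 of the wild type level. The change in Snf5-/- was -0.78 ± 0.30 and did not pass (adjusted p = 0.0987), although it did on the deposited scale (-1.06, adjusted p = 0.0151; 0.107 without wild type replicate 1).

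Cnn1, the calponin of differentiated smooth muscle, was nearly constant in wild type on the quantile scale at 4086, 3842 and 3836 (deposited 6556, 4677 and 4273). It read 3226, 3122 and 1114 in Snf5-/- and 2851, 1097, 871 and 1789 in Brg1-/-, so both mutant groups lay wholly below wild type but were widely spread within themselves. It fell by 1.40 ± 0.40 in Brg1-/- (adjusted p = 0.0219), and this call was lost without any one wild type array or without Brg1-/- replicate 2 or 3 (adjusted p up to 0.0677). In Snf5-/- the value of -0.81 ± 0.43 did not pass (adjusted p = 0.221), but on the deposited scale it did (-1.19, adjusted p = 0.0238), except without wild type replicate 1 or Snf5-/- replicate 3 (up to 0.151).

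Des encodes desmin, the intermediate filament protein of muscle. It read 374, 473 and 497 in wild type, against 71.8, 477 and 134 in Snf5-/- and 257, 144, 158 and 39.7 in Brg1-/-. The Brg1-/- arrays were all below wild type, and 1 of them was at or below background, while Snf5-/- replicate 2 lay inside the wild type range and the other Snf5-/- arrays far below it. Des fell by 1.85 ± 0.63 in Brg1-/- (adjusted p = 0.0459), a call lost in 7 of 10 fits that left out an array: each wild type array, Snf5-/- replicate 3 and Brg1-/- replicates 2, 3 and 4 (adjusted p up to 0.124). In Snf5-/- the Des value of -1.42 ± 0.68 did not pass (adjusted p = 0.172). On the deposited scale it did (-1.71, adjusted p = 0.0305), except without any one wild type array or Snf5-/- replicate 1 (up to 0.152). The second Des probe set gave -0.15 ± 0.22 in Brg1-/- and did not pass (adjusted p = 0.659).

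Tagln, transgelin or SM22-alpha, a widely used marker of the smooth muscle programme, read 19712, 20653 and 20484 in wild type, against 17263, 16786 and 12962 in Snf5-/- and 20192, 15201, 13948 and 13948 in Brg1-/-. All Snf5-/- arrays lay below wild type, and Brg1-/- replicate 1 lay inside the wild type range while the other 3 were below. It fell by 0.38 ± 0.13 in Brg1-/- (adjusted p = 0.0475), which did not hold without any one wild type array or without Brg1-/- replicate 2, 3 or 4 (adjusted p up to 0.121). The Snf5-/- value was of the same size, -0.38 ± 0.14, and did not pass (adjusted p = 0.0741).

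Its relative Tagln2, which is common outside muscle, fell in both mutants. The arrays read 4649, 5700.4 and 5479 in wild type, against 3639, 4471 and 2775 in Snf5-/- and 3790.4, 3103, 3066 and 2754 in Brg1-/-, with no overlap between wild type and either mutant. The fall was 0.56 ± 0.16 in Snf5-/- (adjusted p = 0.032) and 0.73 ± 0.15 in Brg1-/- (adjusted p = 0.00388). Leaving out wild type replicate 2 or 3 or Snf5-/- replicate 1 or 3 ended the Snf5-/- call (adjusted p up to 0.107). A second probe set of Tagln2 passed in neither mutant (0.02 ± 0.18 and -0.28 ± 0.17).

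**Figure D2:**
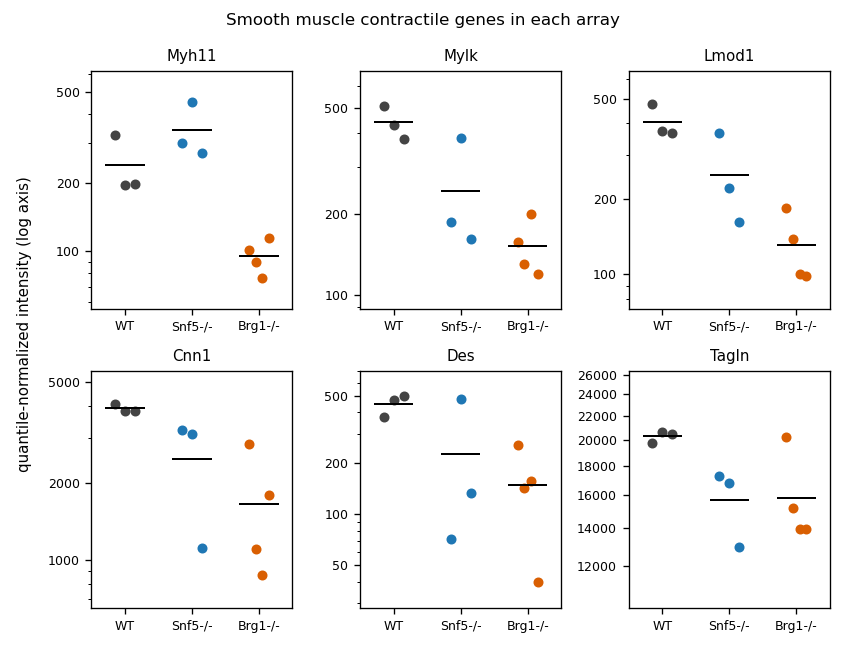
Quantile-normalized intensity (log axis) of 6 smooth muscle contractile genes in each array of wild type (WT, 3), Snf5-/- (3) and Brg1-/- (4); points are arrays and bars are group means. All Brg1-/- arrays lie below all wild type arrays for Myh11, Mylk, Lmod1, Cnn1 and Des, whereas Tagln overlaps through 1 Brg1-/- array.

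Smtn, smoothelin, a marker of contractile smooth muscle, went the other way on the quantile scale. The wild type arrays were almost equal there at 349, 348 and 350.3 (deposited 493.8, 392.0 and 372.4). The Snf5-/- arrays read 585, 484 and 392 and the Brg1-/- arrays 493, 454, 437 and 446, all above wild type. The rise was 0.46 ± 0.14 in Snf5-/- (adjusted p = 0.043) and 0.39 ± 0.13 in Brg1-/- (adjusted p = 0.0485). On the deposited scale the values were 0.19 and -0.05, the second with the sign turned, and neither passed. The Snf5-/- call was lost without any wild type array, Snf5-/- replicate 1 or 2, or Brg1-/- replicate 1, 2 or 3 (adjusted p up to 0.151), and the Brg1-/- call without any wild type array, Snf5-/- replicate 2 or any Brg1-/- array (adjusted p up to 0.118).

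Cnn2 and Cnn3 are calponins of wider expression than Cnn1. Cnn2 ranged from 10461 to 10978 in wild type, 8652 to 10005 in Snf5-/- and 8243 to 9749 in Brg1-/-, and it fell by 0.26 ± 0.08 in Brg1-/- (adjusted p = 0.0273), a call that did not survive the loss of any one wild type array or of Brg1-/- replicate 3 or 4 (adjusted p up to 0.0868). The Snf5-/- value of -0.25 ± 0.08 did not pass (adjusted p = 0.0565). Cnn3 rose by 0.31 ± 0.09 in Snf5-/- (adjusted p = 0.0263), lost without wild type replicate 3 or Snf5-/- replicate 3 (adjusted p up to 0.114) and with a value of -0.01 on the deposited scale. Its Brg1-/- value was -0.11 ± 0.08 (adjusted p = 0.353). The other Cnn3 probe sets gave 0.06 to 0.26 in Snf5-/- and none of them passed there. In Brg1-/- 1 of them fell, by 0.74 ± 0.25 (adjusted p = 0.0471 over all probe sets). Cald1, caldesmon, which binds actin and tropomyosin, passed in neither mutant (-0.02 ± 0.10 and -0.11 ± 0.09).

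Other muscle and epithelial markers moved beside this group. Of 9 smooth muscle markers outside the members, 7 were tested: in Brg1-/- Rgs5 fell by 1.86 ± 0.35 (adjusted p = 0.00229), Actg2, smooth muscle gamma-actin, fell by 1.05 ± 0.22 (adjusted p = 0.00466) and Synpo2 rose (adjusted p up to 0.0965 without any one wild type array or Brg1-/- replicate 2 or 4), while in Snf5-/- Mcam rose on the quantile scale (up to 0.164 without wild type replicate 2 or 3, any Snf5-/- array or Brg1-/- replicate 2), and Actg2 by 0.93 ± 0.24 (adjusted p = 0.0192; up to 0.0744 without wild type replicate 2 or 3 or Snf5-/- replicate 1). On the deposited scale none of these rises passed, while both falls did. Acta2, smooth muscle alpha-actin, had values of 0.04 ± 0.06 and -0.03 ± 0.06. The summed intensity of the 9 ran from 28563 to 30454 in wild type, 30767 to 34536 in Snf5-/- and 25543.5 to 29599.8 in Brg1-/-. Only 2 of 12 skeletal muscle markers were tested and Myf5, Myf6, Tnnc2 and Mylpf were at background in all arrays, yet their summed intensity went from 4662 to 5825 in wild type to 858 to 1562 in Snf5-/- and 620.3 to 824 in Brg1-/-, with Acta1 as the one that fell. Of 7 cardiac markers, 1 was tested, Actc1, which fell in Brg1-/- (-0.73 ± 0.23, adjusted p = 0.0324; up to 0.107 without wild type replicate 1 or 2 or Brg1-/- replicate 1, 2 or 3), Myh6 was at background in all arrays, and the sums ran from 302 to 429 in wild type, 312 to 629.6 in Snf5-/- and 309 to 376 in Brg1-/-. Of 10 epithelial markers 7 were tested, with Epcam at background, and 2 fell in Snf5-/- (Dsp and Perp) and 4 in Brg1-/- (Krt18, Dsp, Perp and Cldn4). Dsp and Cldn4 were tested in only 7 of the 10 fits that left out an array, so passing the filter depended on a few arrays. The filter can thus have selected them for high wild type values, and their falls carry no separate weight. The epithelial sums ran from 2209 to 2902 in wild type, 1279 to 1859.6 in Snf5-/- and 915 to 1232 in Brg1-/-. The part of these cell types in the falls of smooth muscle genes was not tested.

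Of the 4 tropomyosins, which wrap along the actin filament and set which myosins reach it, 1 fell in Snf5-/- and none passed in Brg1-/- by its representative probe set. Tpm4 fell in Snf5-/- by 0.34 ± 0.10 (adjusted p = 0.0389), from arrays of 10432 to 12303 in wild type to 8025 to 9813, and this call was lost without wild type replicate 1 or 2, Snf5-/- replicate 2 or 3, or Brg1-/- replicate 2 or 3 (adjusted p up to 0.127). In Brg1-/- the log2 changes on the quantile scale ran from -0.11 to 0.13. Tpm1 and Tpm2 had values of 0.13 ± 0.08 and 0.08 ± 0.13 in Snf5-/-. Tpm3 read -0.09 ± 0.07 in Snf5-/- and 0.05 ± 0.06 in Brg1-/-, and on the deposited scale the Brg1-/- value was -0.55, with the sign turned. Other tropomyosin probe sets rose in Brg1-/-, 2 of Tpm1 (1.21 ± 0.20 and 0.37 ± 0.10, adjusted p = 0.00109 and 0.0185 over all probe sets) and 1 of Tpm2 (0.55 ± 0.16, adjusted p = 0.0253).

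Among the 5 actin cross-linkers, Flnc fell in Snf5-/- and Palld in Brg1-/-. Flnc, the filamin of striated muscle and of stressed actin bundles, read 2464, 2089 and 2164 in wild type, against 1853, 1505 and 1243 in Snf5-/- and 2581, 1842, 1714 and 1807 in Brg1-/-. All Snf5-/- arrays lay below wild type, whereas the Brg1-/- arrays overlapped it. The fall in Snf5-/- was 0.56 ± 0.17 (adjusted p = 0.0377), not held without any one wild type array, Snf5-/- replicate 2 or 3 or Brg1-/- replicate 2 (adjusted p up to 0.124), and the Brg1-/- value was -0.19 ± 0.16 (adjusted p = 0.411). The difference between the mutants themselves, 0.37 ± 0.16, did not pass (adjusted p = 0.198).

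Palld, palladin, a scaffold of stress fibre dense bodies, read 5035, 4868 and 4641 in wild type, against 5886, 5664 and 5289.8 in Snf5-/- and 4812, 2922, 2892 and 3601 in Brg1-/-. All Snf5-/- arrays were above wild type, Brg1-/- replicates 2 to 4 were well below it, and Brg1-/- replicate 1 was inside its range. The fall in Brg1-/- was 0.48 ± 0.15 (adjusted p = 0.0305), lost without any one wild type array or Brg1-/- replicate 2 or 3 (adjusted p up to 0.0946), and the Snf5-/- value of 0.21 ± 0.16 did not pass (adjusted p = 0.391). Flna, the broad filamin, and the alpha-actinins Actn1 and Actn4 passed in neither mutant, with log2 changes from -0.06 to 0.15 in Snf5-/- and -0.16 to -0.04 in Brg1-/-.

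Of the 9 focal adhesion plaque genes, Lpp, Pxn and Parva fell in both mutants, Zyx fell in Snf5-/-, and Vcl, Tln1, Vasp, Ilk and Tgfb1i1 did not pass, so 4 fell in Snf5-/- and 3 in Brg1-/-.

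Lpp, a zyxin-family LIM protein that shuttles between adhesions and nucleus, had wild type arrays within a narrow band on the quantile scale at 4877, 4901 and 4943 (deposited 7887.3, 6001.3 and 5687.5). It read 3779, 3998 and 2501 in Snf5-/- and 2655, 2377, 2277 and 3062 in Brg1-/-, all below wild type. Lpp fell by 0.93 ± 0.15 in Brg1-/- (adjusted p = 0.000864), to 0.525 of wild type, and by 0.55 ± 0.16 in Snf5-/- (adjusted p = 0.0337). The Snf5-/- call was lost without any one wild type array or without Snf5-/- replicate 3 (adjusted p up to 0.0963).

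Pxn, paxillin, an adaptor that recruits kinases to adhesions, read 1593, 1663 and 1583 in wild type, against 942, 1214 and 713 in Snf5-/- and 965, 1019, 833 and 1207 in Brg1-/-. No mutant array reached the wild type range. The fall was 0.79 ± 0.18 in Snf5-/- (adjusted p = 0.00975) and 0.69 ± 0.17 in Brg1-/- (adjusted p = 0.0086), and both calls held with any single array left out. The other Pxn probe sets, 2 in number, passed in neither mutant.

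Parva, alpha-parvin, the partner of integrin-linked kinase that binds actin, read 1835, 1968 and 1768 in wild type, against 1522, 1454 and 1160.4 in Snf5-/- and 1096, 1406, 1191 and 1268 in Brg1-/-. Here too both mutants lay wholly below wild type. It fell by 0.44 ± 0.13 in Snf5-/- (adjusted p = 0.0309) and by 0.59 ± 0.12 in Brg1-/- (adjusted p = 0.00329); the first was lost without any one wild type array or Snf5-/- replicate 3 (adjusted p up to 0.109). Its second probe set fell by 0.45 and 0.49 (adjusted p = 0.0284 and 0.00956 over all probe sets).

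Zyx, zyxin, which gathers at adhesions and stress fibres under tension, was tightly grouped in wild type on the quantile scale at 6624, 6572 and 6650.0 (deposited 10220.4, 8039.3 and 7504.1). It read 4594, 4978 and 4432 in Snf5-/-, all below wild type, and 6690.2, 5658, 5664 and 4802 in Brg1-/-, where replicate 1 lay above the highest wild type array. The fall of 0.51 ± 0.10 in Snf5-/- (adjusted p = 0.00665) held with any single array left out. In Brg1-/- the value was -0.22 ± 0.10 (adjusted p = 0.112) on the quantile scale and -0.86 on the deposited scale, where it passed (adjusted p = 0.000169). The difference between the mutants was 0.28 ± 0.10 and did not pass (adjusted p = 0.131).

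**Figure D3:**
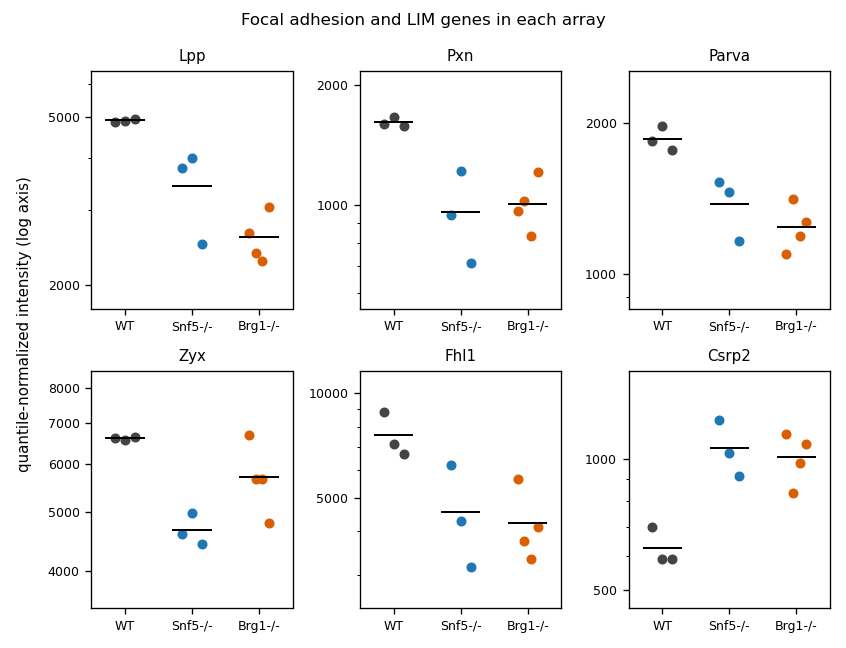
Quantile-normalized intensity (log axis) of 4 focal adhesion genes and 2 LIM domain genes in each array of wild type (WT, 3), Snf5-/- (3) and Brg1-/- (4); points are arrays and bars are group means. Both mutants lie wholly below wild type for Lpp, Pxn, Parva and Fhl1 and wholly above it for Csrp2, and Zyx lies below it in Snf5-/-.

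The other 5 plaque genes passed in neither mutant on the quantile scale by their representative probe sets. Vcl, vinculin, differed by 0.00 ± 0.17 in Snf5-/- and -0.28 ± 0.15 in Brg1-/-. Tln1, talin 1, which links integrin tails to actin, gave 0.21 ± 0.13 and 0.07 ± 0.12. Ilk, integrin-linked kinase, and Vasp, an actin filament elongation factor, had all Brg1-/- arrays above wild type on the quantile scale, at 0.26 ± 0.10 (adjusted p = 0.0882) and 0.30 ± 0.11 (adjusted p = 0.0695), without passing. Tgfb1i1, the paxillin relative Hic-5, gave 0.14 ± 0.12 and 0.13 ± 0.12. With the deposited values Tln1, Ilk and Tgfb1i1 passed in Brg1-/- with the opposite sign, at -0.56, -0.40 and -0.51.

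Of the 6 tested LIM and PDZ-LIM genes, Fhl1 fell and Csrp2 rose in both mutants, and Csrp1 and Pdlim5 fell in Brg1-/-. Fhl1, a LIM-only protein abundant in muscle, read 8837, 7162 and 6705 in wild type, against 6212, 4291 and 3164 in Snf5-/- and 5650.2, 3760.1, 3339 and 4131 in Brg1-/-. Every mutant array lay below the lowest wild type array. Fhl1 fell by 0.78 ± 0.23 in Snf5-/- (adjusted p = 0.0344) and 0.86 ± 0.21 in Brg1-/- (adjusted p = 0.0103). The Snf5-/- call was lost without any one wild type array or Snf5-/- replicate 2 or 3 (adjusted p up to 0.116), and the Brg1-/- call without wild type replicate 1 (adjusted p = 0.0514).

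The cysteine-rich proteins Csrp1 and Csrp2, both LIM proteins that bind alpha-actinin, moved in opposite directions in Brg1-/-. Csrp1 read 7043, 7466 and 7145 in wild type, against 6525, 6582 and 5327 in Snf5-/- and 6345, 4319.9, 4012 and 5904 in Brg1-/-, and it fell by 0.52 ± 0.15 in Brg1-/- (adjusted p = 0.0217). All mutant arrays were below wild type, but the call was lost without any one wild type array or Brg1-/- replicate 2 or 3 (adjusted p up to 0.0695), and the Snf5-/- value of -0.24 ± 0.16 did not pass (adjusted p = 0.328). The second Csrp1 probe set fell in both mutants, by 0.49 ± 0.13 in Snf5-/- and 0.63 ± 0.12 in Brg1-/- (adjusted p = 0.0241 and 0.00302 over all probe sets). Csrp2 read 697, 589 and 590.0 in wild type, against 1233, 1036 and 914 in Snf5-/- and 1142, 835, 982 and 1082 in Brg1-/-, all mutant arrays above wild type. It rose by 0.76 ± 0.15 in Snf5-/- (adjusted p = 0.00436) and 0.69 ± 0.14 in Brg1-/- (adjusted p = 0.00327), and both held with any single array left out. With the deposited values these rises were 0.47 and 0.18 and did not pass (adjusted p = 0.13 and 0.459).

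Pdlim5, a Z-disc and stress fibre PDZ-LIM protein, fell by 0.33 ± 0.11 in Brg1-/- (adjusted p = 0.0389), and the call was lost without wild type replicate 1 or 2 or Brg1-/- replicate 2, 3 or 4 (adjusted p up to 0.172). Fhl2 gave -0.20 ± 0.10 and -0.21 ± 0.09, and Pdlim7, enigma, 0.18 ± 0.20 and -0.30 ± 0.19. Fhl3 was at or below background in 2 of 3 wild type, 1 of 3 Snf5-/- and 4 of 4 Brg1-/- arrays and has no test.

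Set directly against each other, the mutants differed in 3 members by their representative probe sets: Myh11, Cnn3 and Palld were lower in Brg1-/- than in Snf5-/- (2.27% of all genes were lower), and none was higher (2.09% of all genes were higher). At an unadjusted limma p under 0.05, 8 of the 39 were lower, where 11.6% of all genes were, and 5 were higher, where 10.2% of all genes were. The count of lower members was 7 without Snf5-/- replicate 3 and 1 without Brg1-/- replicate 3, with 1 member higher without Brg1-/- replicate 4. Without limma's trend the count was 1. Over all genes 367 changed between the mutants with all arrays, 121 to 490 with 1 array left out and 192 without the trend. Myh11 gave the largest difference, -1.82 ± 0.25 (adjusted p = 0.00329), or 0.284 of the Snf5-/- level, and it passed with any single array left out. Cnn3 read 9170.0, 8757 and 10432 in Snf5-/- and 6877, 6877, 6814 and 7629 in Brg1-/-, with no overlap and a difference of -0.42 ± 0.08 (adjusted p = 0.0153; 0.0576 without Brg1-/- replicate 3). Palld differed by -0.69 ± 0.15 (adjusted p = 0.0254), lost without Snf5-/- replicate 1 or 2 or Brg1-/- replicate 2 or 3 (adjusted p up to 0.0777). All 3 also passed on the deposited scale, at -1.96, -0.68 and -0.94. Actg2 outside the list stood beside Myh11, at -1.97 ± 0.22 (adjusted p = 0.00135), with arrays of 6063, 5076 and 4348 in Snf5-/- and 1998, 1060.4, 909.9 and 1491 in Brg1-/-, and it passed with any single array left out.

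For 20 of the members more than one probe set was tested, and the other probe sets did not always repeat the one that stood for the gene. Of 41 further probe sets, 32 had the same sign as the representative in Snf5-/- and 33 in Brg1-/-, and no gene had probe sets that passed in opposite directions. Over all probe sets, 1 of the 41 rose and 9 fell in Snf5-/-, and 3 rose and 10 fell in Brg1-/-. These are not separate members: Pdlim5 alone gave 5 of the 9 falls in Snf5-/-. In Brg1-/- Lpp and Pdlim5 each gave more than 1 fall. The share called among all tested probe sets was not counted, so the probe set counts in this paragraph only describe the members. In Pdlim5 the representative probe set gave -0.12 ± 0.12 in Snf5-/- and did not pass, while 5 of the 6 others fell there by 0.79 to 1.25 (adjusted p = 0.00684 to 0.0297 over all probe sets). For Lpp a second probe set fell by 1.27 ± 0.18 in Brg1-/- (adjusted p = 0.000452) and another by 1.14 ± 0.18 (adjusted p = 0.00089), deeper than the 0.93 of the representative. The Tpm1 probe set with the larger rise in Brg1-/- also rose in Snf5-/-, by 1.18 ± 0.21 (adjusted p = 0.00342), where the representative gave 0.13. The second Vcl probe set fell by 0.74 ± 0.19 in Snf5-/- (adjusted p = 0.0217), where the representative gave 0.00, and Myh9 had a probe set that fell by 0.59 ± 0.12 in Brg1-/- (adjusted p = 0.00297). Between the mutants 1 of the 41 was higher in Brg1-/- than in Snf5-/-, the second Vcl probe set (0.76 ± 0.18, adjusted p = 0.0389), and 3 were lower, 2 of Cnn3 and 1 of Lpp (-0.76 ± 0.18, adjusted p = 0.0415). Which transcripts each probe set reads was not tested.

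**Figure D4:**
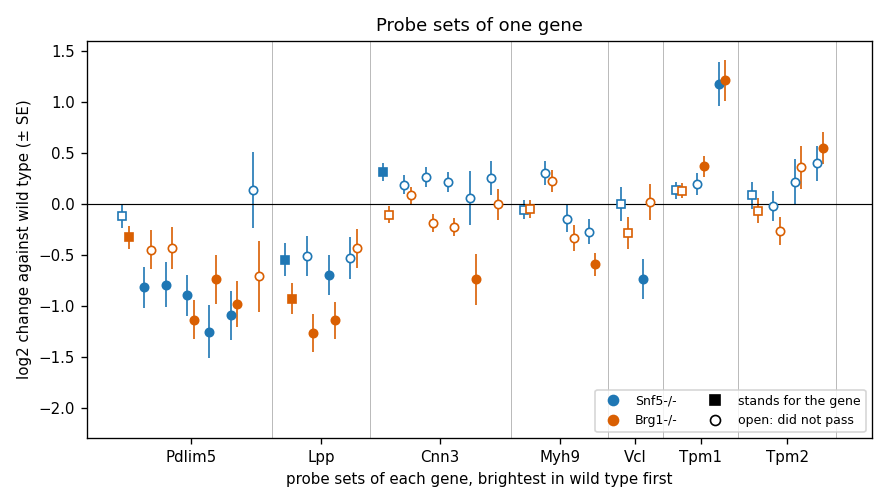
Log2 change against wild type on the quantile scale (vertical axis, with SE bars) of every tested probe set of 7 members in Snf5-/- (blue) and Brg1-/- (orange); squares stand for the gene, circles are its other probe sets, and filled symbols passed an adjusted p of 0.05 over all probe sets. The Pdlim5 square sits near 0 in Snf5-/- while 5 of its circles lie between -0.79 and -1.25, and the last Tpm1 circle lies above 1 in both mutants.

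The count of lower members differed between the scales. With the deposited values 33 of 39 members were lower in Brg1-/-, where 44.1% of all genes and 65.0% of the brightest 20% of genes were lower, and 30 of the 39 members were among these. In Snf5-/- 16 members were lower on that scale, against 16.1% of all genes and 25.3% of the brightest 20%. In Brg1-/- against Snf5-/- 6 were lower, against 3.93% and 7.14%. No member was higher in any comparison. Of all genes, 3.15% were higher in Snf5-/-, 3.43% in Brg1-/- and 0.369% in Brg1-/- against Snf5-/-. At an unadjusted limma p under 0.05, 1 member was higher in Snf5-/-, where 5.32% of all genes were. In Brg1-/- and between the mutants 0 were higher, where 4.32% and 2.27% of all genes were. The members' median log2 change on the deposited scale was -0.36 in Snf5-/-, beside -0.27 for all genes and -0.31 for the brightest 20%. In Brg1-/- it was -0.76, beside -0.47 and -0.55. On the quantile scale 11.1% of these brightest genes were lower in Snf5-/- and 16.9% in Brg1-/-. Without wild type replicate 1, the brightest array, 9 members were lower in Snf5-/- on the deposited scale and 1 was higher, and 16 were lower in Brg1-/- against Snf5-/-. That last count was 3 without Snf5-/- replicate 1, Brg1-/- replicate 2 or Brg1-/- replicate 3. The share of all genes called in these fits was not counted. Of the 33 members lower in Brg1-/-, 31 passed with any single array left out, the exceptions being Ilk, lost without wild type replicate 1 or Brg1-/- replicate 2, 3 or 4 (adjusted p up to 0.117), and Tgfb1i1, lost without wild type replicate 1 (adjusted p = 0.0915).

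**Figure D5:**
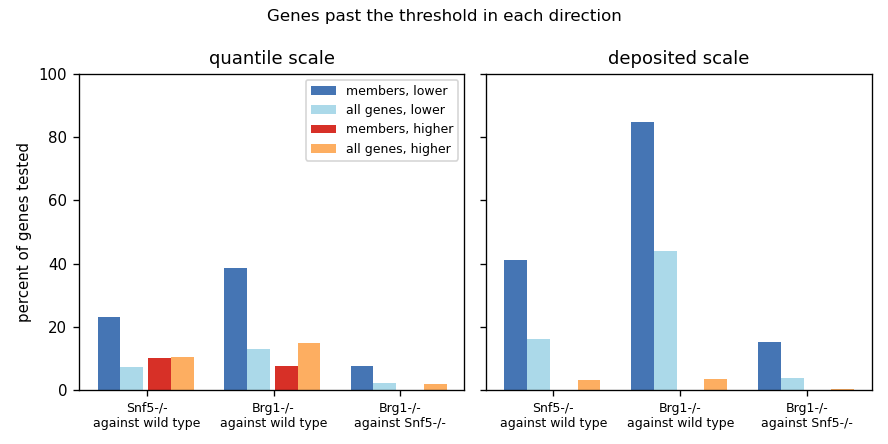
Percent of genes past an adjusted p of 0.05 in each comparison (vertical axis), lower and higher, for the 39 tested members and for all 8403 genes, on the quantile scale (left) and the deposited scale (right). The bars for members lower are 23.1% and 38.5% against wild type on the quantile scale and 41.0% and 84.6% on the deposited scale, and the members-higher bars vanish on the deposited scale.

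Other genes of actin regulation and adhesion were called in both directions. Of 50 such genes 40 were tested. In Snf5-/- 6 rose and 2 fell, beside 10.6% and 7.47% of all genes, and in Brg1-/- 6 rose and 10 fell, beside 14.9% and 12.9% of all genes. Between the mutants, 2 (Tns1 and Pdlim2) were lower in Brg1-/- than in Snf5-/-, beside 2.27% of all genes. On the deposited scale 0 were higher and 9 lower in Snf5-/-, beside 3.15% and 16.1% of all genes. In Brg1-/- 1 was higher and 23 lower on that scale, beside 3.43% and 44.1% of all genes. Between the mutants 6 were lower, beside 3.93% of all genes. Myocd, the smooth muscle and cardiac cofactor of Srf, was below the filter. Mrtfa, the cofactor of Srf that responds to actin, read 1289, 1270.1 and 1179.8 in wild type, against 1735, 1567 and 1625 in Snf5-/- and 1823, 1648, 1699.6 and 1678 in Brg1-/-. It rose by 0.40 ± 0.09 (adjusted p = 0.0103) and 0.46 ± 0.09 (adjusted p = 0.00208), with no overlap of arrays, but gave 0.08 and -0.10 on the deposited scale without passing. Its Snf5-/- call did not hold without wild type replicate 3 (adjusted p = 0.0516).

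Anln, anillin, a scaffold of the cytokinetic ring, rose by 0.67 ± 0.18 in Snf5-/- (adjusted p = 0.0259) and 1.01 ± 0.17 in Brg1-/- (adjusted p = 0.0012). Rdx, radixin, which ties actin to the membrane, rose by 0.37 ± 0.11 and 0.57 ± 0.10 (adjusted p = 0.0377 and 0.00174). Neither passed on the deposited scale, and in Snf5-/- the Anln call was lost without wild type replicate 1 or 3 or Snf5-/- replicate 1 or 3 (adjusted p up to 0.0977) and the Rdx call without wild type replicate 1 or 2 or Snf5-/- replicate 1 (up to 0.131). Both genes that fell in Snf5-/- fell in Brg1-/- as well and passed on both scales, and they are named here after their values were seen. Enah, an actin filament elongation factor related to Vasp, fell by 0.93 ± 0.22 in Snf5-/- (adjusted p = 0.0121; 0.0515 without wild type replicate 1) and by 0.99 ± 0.20 in Brg1-/- (adjusted p = 0.0039). Diaph1, a formin that nucleates actin filaments, fell by 0.47 ± 0.11 (adjusted p = 0.0111) and 0.42 ± 0.10 (adjusted p = 0.00893).

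Among the genes that fell in Brg1-/-, Pdlim2, an actin-associated PDZ-LIM protein, read 648, 700.5 and 704 in wild type, against 807, 577 and 615 in Snf5-/- and 348, 404, 363 and 371 in Brg1-/-, and it fell by 0.88 ± 0.13 against wild type (adjusted p = 0.000381) and 0.83 ± 0.13 against Snf5-/- (adjusted p = 0.00605). Tns1, tensin 1, an adhesion protein, fell by 0.90 ± 0.14 (adjusted p = 0.000735), and by 0.61 ± 0.14 against Snf5-/- (adjusted p = 0.0332), the latter lost without wild type replicate 2, Snf5-/- replicate 1 or 2, or Brg1-/- replicate 2 or 3 (up to 0.0972). Capg, a filament capping protein, fell by 1.18 ± 0.22 in Brg1-/- (adjusted p = 0.00207). Macrophage and leukocyte markers, of which 12 of 15 were tested and none was at background in all arrays, had summed intensity from 2968 to 6177 in wild type, 3389 to 12451 in Snf5-/- and 2780.4 to 6652 in Brg1-/-, with C1qb and C1qc higher in both mutants on both scales. On the quantile scale the C1qc calls were lost in most fits that left out an array, among them those without any wild type array (adjusted p up to 0.129 and 0.112), and C1qb in Brg1-/- did not hold without wild type replicate 2 (0.0626). Of 7 endothelial markers 2 were tested, Tie1 and Erg were at background in all arrays, and sums ran from 483 to 568 in wild type, 407 to 496 in Snf5-/- and 395 to 575 in Brg1-/-. Both tested ones were called: Tek rose by 1.41 ± 0.33 in Snf5-/- (adjusted p = 0.0113) and 1.89 ± 0.31 in Brg1-/- (adjusted p = 0.000903), and Kdr fell by 0.79 ± 0.19 in Brg1-/- (adjusted p = 0.00941), all on both scales and with any single array left out on the quantile scale. Their part in these values was not tested.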

How the data were processed

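RNA of primary mouse embryonic fibroblasts was hybridized to Affymetrix arrays as biotin-labelled cRNA, per the labels' protocols. The deposited values are the authors' linear MAS5 intensity of each probe set, per the submitters' processing notes. The MAS5 version, scaling target and filters are not given in the sources used here, and 0 columns of other series were in the table. From these values log2 was taken with no pseudocount, and arrays were quantile-normalized in limma 3.58.1 (R 4.3.3). The brightest of 27 control probe sets for Bacillus subtilis genes (26.7 to 57.4) served as the background of an array, a choice made after the data were seen. MAS5 summarizes each array by itself, so a difference in array brightness passes into every gene.

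Probe sets were named from the platform annotation, and gene starts and promoter windows from RefSeq (GRCm38.p6). A gene was represented by its brightest probe set by mean log2 intensity, and it had to reach the 40th percentile of its array in at least 3 arrays. A mean was fitted for each of the 3 groups over all 10 arrays (lmFit, eBayes with intensity trend, 7 residual degrees of freedom), with two-sided tests and Benjamini-Hochberg adjustment over all 8403 genes within a comparison. The scripts were tested on simulated data. Alternatives were the deposited scale, median centring, other filters, a pseudocount of 32, other summaries of probe sets, no trend, only the groups compared, the replicate number as a block, and each array left out.

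Values in each array are printed for the 16 members of largest log2 change past the threshold in either mutant, for Myh11, Cnn1, Lmod1, Des, Smtn, Tagln and Srf, and for a few genes singled out after their values were seen (Cnn3, Mrtfa, Pdlim2 and Actg2). Of the other pathway genes, the 6 with the smallest adjusted p are named. The members and all gene lists were chosen with earlier results of these data known.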

Additional observations from a re-analysis of the deposited data

Results flagged for a closer look

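Among the 39 tested members, 2 had one Brg1-/- array that stood apart from the other 3 by more than Dixon's critical value for the gap over the group's range, and chance alone marks about 1 in 20 groups of this size. Cnn3, a calponin of wide expression, read 7629 in Brg1-/- replicate 4 against 6814 to 6877 in the other Brg1-/- arrays, a gap of 0.919 of the range. Cald1, caldesmon, read 10592 in Brg1-/- replicate 3 against 11688 to 11742, a gap of 0.955 of the range.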

How the results depend on the processing

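The scale between arrays changed the counts of members. On the deposited scale no member rose, the fallen members were 16 in Snf5-/-, 33 in Brg1-/- and 6 in Brg1-/- against Snf5-/-, and log2 changes turned sign for Cnn3 in Snf5-/- (-0.009) and, in Brg1-/-, for Smtn (-0.052), Tpm3 (-0.55), Tln1 (-0.56), Ilk (-0.40) and Tgfb1i1 (-0.51). With median centring 2 members rose in Snf5-/-. Over all genes, 892 were higher and 628 lower in Snf5-/- on the quantile scale, with 265 and 1354 from the deposited values and 684 and 636 with median centring. In Brg1-/- the same splits were 1250 and 1080, 288 and 3702, and 904 and 1313, and between the mutants 176 and 191, 31 and 330, and 83 and 209. All genes changed in Brg1-/- numbered 2330 on the quantile and 3990 on the deposited scale.

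Without the intensity trend 2, 9 and 1 members fell in Snf5-/-, in Brg1-/- and between the mutants, and changed genes between the mutants were 192 instead of 367. With only the compared groups fitted, 148 genes changed between the mutants and 2 members rose in Snf5-/- against wild type. The cause was not tested. Leaving out 1 array gave 2 to 4 risen and 2 to 10 fallen members in Snf5-/-, 2 to 4 and 7 to 17 in Brg1-/-, and 0 to 1 and 1 to 7 between the mutants. On the deposited scale these ranges were 0 to 1 and 9 to 18, 0 and 31 to 33, and 0 and 3 to 16. Over all genes they were 922 to 1668, 1639 to 2507 and 121 to 490.

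The labels number replicates alike in the groups, and deviations of like-numbered arrays correlated at -0.0726 to 0.11. These values show no pairing by number, but they cannot exclude one, since a weak shared effect would also give low values. With the replicate number as a block, 2 members were higher and 5 lower between the mutants, and 11 were lower on the deposited scale. The block left the other member counts within 1.5 times. Of 2340 single-gene values under the alternatives, 2123 kept their side of the threshold, 155 no longer passed, 56 newly passed and 6, listed above, turned sign and passed under at least one of both settings. Most of these values had no call to lose. In the main fit 26 of 39 members had none in Snf5-/-, 21 in Brg1-/- and 36 between the mutants. Of the 13, 18 and 3 calls in that order, only 3, 9 and 1 passed in every fit that left out an array.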
